A study of Mus musculus with 5 samples.

Results

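The comparison described here is between medial ganglionic eminence (MGE) tissue of mouse embryos that lack the homeodomain transcription factors Dlx1 and Dlx2 and the same tissue of wild-type (WT) embryos. It comprised 3 of the 5 Affymetrix expression arrays of the series, 2 of mutant and 1 of WT tissue, chosen by their labels. The 2 arrays of cultured cells were not used. Total RNA came from the rostral MGE, its ventricular and subventricular zones, at E15.5. The mutants are labelled Dlx1/2 mutant and -/-; the WT array is described as WT although its title reads +/_, and the description was followed. The labels give neither the mutant allele nor the sex of the embryos, nor whether the mutant arrays stand for different embryos, different pools or repeats of 1 sample. The p-values measure the spread between those arrays alone, and it may be technical.

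Dlx1 and Dlx2 are neighbouring genes whose products switch on GABAergic programmes in progenitors of the basal forebrain as these leave the cell cycle. They act upstream of Dlx5 and Dlx6, another neighbouring pair. The MGE, marked by Nkx2-1 and its target Lhx6, gives rise to cortical and striatal interneurons and, through Lhx8, to cholinergic neurons of the basal forebrain. Loss of Dlx1 and Dlx2 is known to arrest many of these neurons close to where they are born.

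Each array reported 45101 probe sets on a linear intensity scale, the signal. Of 18193 genes with a named probe set, 11030 were bright enough to test, each through its brightest probe set. Differences are given as mutant minus WT on the log2 scale after quantile normalization, each with its standard error (SE) from limma, while levels are the deposited signals. A gene was called higher or lower when its Benjamini-Hochberg adjusted p lay below 0.05. Signals under 5.02 were set to that floor, and a difference from a group wholly at the floor is a lower bound. The fit had 1 residual degree of freedom, to which the variance prior added 11.44, and it assumed that the lone WT array varies like the pair of mutant arrays. Calls therefore lean on that prior: without its intensity trend 0 genes were called higher and 2 lower, although 2550 had an unadjusted p under 0.05. With dim genes kept in the test 11 were called higher and 378 lower, and 15 of these were among the 1746 called here.

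The mutant arrays were closer to each other than to WT. Over the genes tested, their difference had an SD of 0.301, against 0.527 and 0.526 for each of them minus WT. In all 984 genes were called higher (8.92%) and 762 lower (6.91%), together 15.8% of those tested, and 3235 had an unadjusted p under 0.05. For all 1746 called genes the mutant arrays differed from WT in the same direction, as they did for 8938 of all 11030 (81%). Both differences share the WT array, so this agreement is a description only. By size alone, 241 genes (2.18%) were at least 2-fold higher and 122 (1.11%) at least 2-fold lower in both mutant arrays. Of these, 225 higher genes (2.04% of those tested) and 113 lower genes (1.02%) were also called. Their median folds were 2.72 and 2.46, and 32 of the higher and 14 of the lower genes reached 4-fold in both arrays. The intensity filter used the mean of 1 WT and 2 mutant arrays. A gene silent in both mutant arrays thus passed it less easily than a gene silent in WT. The excess of higher genes is therefore not a measure over all genes. With no filter on dim genes, 741 were at least 2-fold higher and 653 at least 2-fold lower in both mutant arrays. Just inside the 2-fold limit lay the AMPA receptor subunit gene Gria2 (1.001 in its smaller difference) and the interneuron gene Nxph1 (−1.002). Where such a gene had more than 1 probe set above the intensity filter, all of them pointed the same way for 68 of 75 higher and 38 of 41 lower genes.

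**Figure D1:**
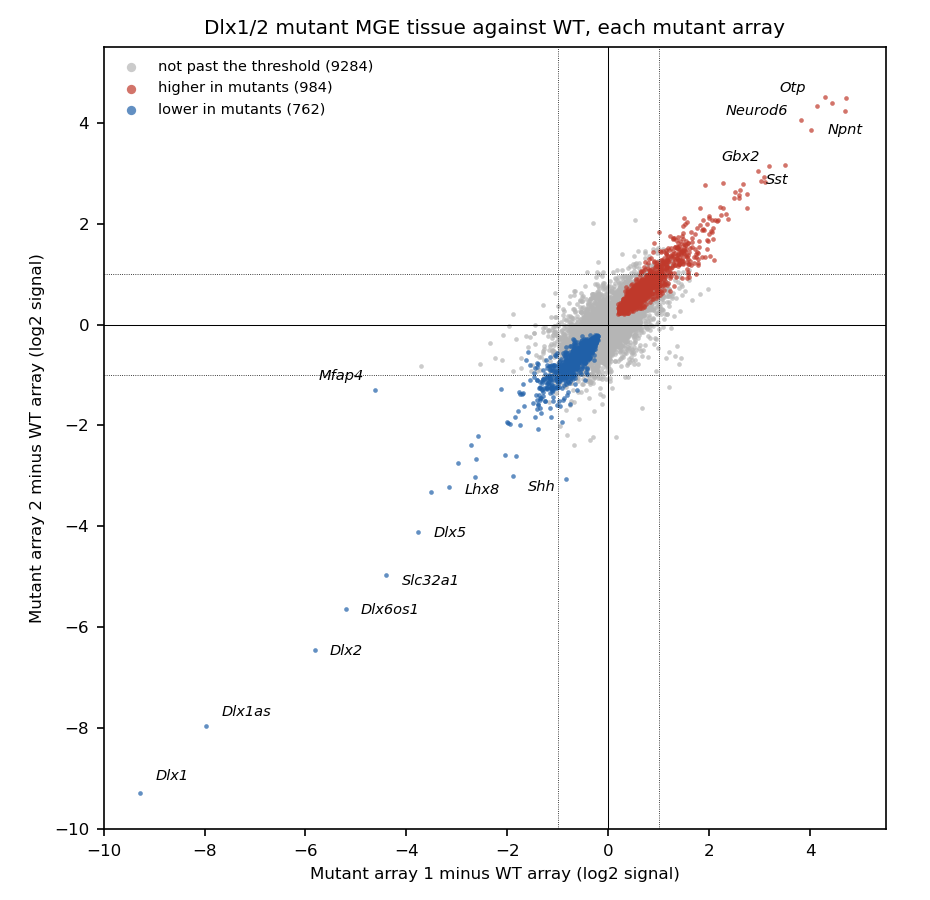
Each point is 1 of 11030 genes, plotted by its log2 signal difference from the WT array in mutant array 1 (x axis) and in mutant array 2 (y axis), with called genes in colour and dotted lines at 2-fold. Called genes lie in the lower left and upper right quadrants, and Dlx1, Dlx1as, Dlx2, Dlx6os1 and Slc32a1 form the far end of the falls.

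The Dlx genes themselves were the deepest falls. Dlx1 had a signal of 3278 in WT tissue and of 2.80 and 0.921 in the mutant arrays. With both mutant values under the floor, Dlx1 fell at least 620-fold (limma adjusted p = 6.3e-09). Its antisense RNA Dlx1as went from 1269 to 1.88 and 1.58, also at the floor in both, a fall of at least 249.8-fold (adjusted p = 1.3e-07). Dlx2 read 1069 in WT against 18.7 and 11.7, a fall of 6.13 ± 0.33 (adjusted p = 1.7e-07). These 3 transcripts come from the mutated locus and so follow the genotype; where their probe sets lie relative to the mutation was not analysed here.

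At the second Dlx pair, Dlx5 read 751 in WT and 55.0 and 43.4 in the mutants, a fall of 3.94 ± 0.22 (limma adjusted p = 2.5e-07). Dlx6os1, the long non-coding RNA transcribed opposite Dlx6 (also known as Evf2), fell by 5.42 ± 0.19, from 2674 to 68.7 and 51.0 (adjusted p = 3.8e-09). Dlx6 had too low a mean signal for the test, at 171.9 in WT and 4.14 and 6.56 in the mutants. Unlike Dlx1, Dlx5 and Dlx6os1 kept a signal well above the floor in both mutant arrays. The remaining family members were dim in all 3 arrays and not tested: Dlx3 read 28.4, 26.5 and 23.6, and Dlx4 22.5, 26.9 and 12.9, in the order WT, mutant 1, mutant 2.

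The RefSeq promoter windows of Dlx6os1 are shown because this gene fell most among those outside the mutated locus and because its windows hold the homeodomain core motif TAATTA, to which Dlx proteins are known to bind. Each window runs from 250 bases before to 50 bases after a transcript start. The motif is in capitals, and it is its own reverse complement, so both strands read alike. Dlx6os1 has 2 windows, on the minus strand of GRCm38.p6, at chr6:6861634-6861933 and chr6:6869484-6869783.
Dlx6os1, window at chr6:6861634-6861933: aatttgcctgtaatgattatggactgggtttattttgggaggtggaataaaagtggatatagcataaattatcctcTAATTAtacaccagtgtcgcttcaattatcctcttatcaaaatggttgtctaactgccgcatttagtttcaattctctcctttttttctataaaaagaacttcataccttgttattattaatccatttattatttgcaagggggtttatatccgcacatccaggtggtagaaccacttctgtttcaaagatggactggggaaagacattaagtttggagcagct
Dlx6os1, window at chr6:6869484-6869783: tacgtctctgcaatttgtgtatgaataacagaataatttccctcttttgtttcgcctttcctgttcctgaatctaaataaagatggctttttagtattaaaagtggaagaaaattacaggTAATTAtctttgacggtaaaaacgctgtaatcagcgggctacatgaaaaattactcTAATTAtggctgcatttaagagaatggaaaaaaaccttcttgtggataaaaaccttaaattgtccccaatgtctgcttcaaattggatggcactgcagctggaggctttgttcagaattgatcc
The first window holds the motif once and the second has 2 copies. Over the series the motif was no more than a description. Of the 113 genes called and at least 2-fold lower 75 had a window, and the motif occurred in 3 of their 94 windows (3.19%). Of the 225 higher genes 174 had a window, and it occurred in 7 of their 256 windows (2.73%). Among windows of all genes tested the share was 2.33% (270 of 11567), and among all RefSeq windows 5.29% (1738 of 32851). In the lower set the windows with the motif belonged to Dlx6os1 and to Mef2c, a MADS-box factor of maturing interneurons, which fell by 1.16 ± 0.26 (131.7 in WT, 64.5 and 56.8 in the mutants; adjusted p = 0.0099) and is named here for its motif, with its value known.

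**Figure D2:**
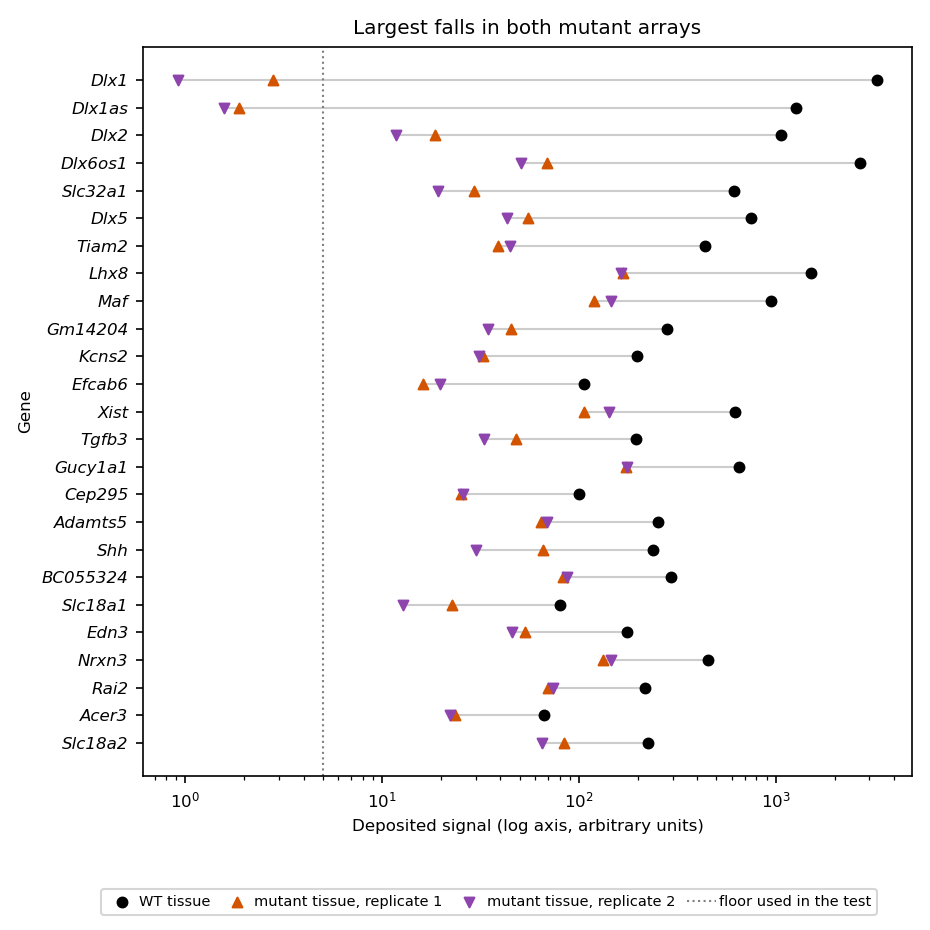
Deposited signal (log axis, arbitrary units) of the 25 genes with the largest falls in both mutant arrays, 1 row a gene, with the WT array as a circle, the mutant arrays as triangles and the floor of 5.02 as a dotted line. In every row both mutant arrays lie below WT, and Dlx1 and Dlx1as lie under the floor in both.

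Among genes that make, package or take up GABA, the deepest fall was in packaging. Slc32a1 (VGAT), which fills synaptic vesicles with GABA, read 617 in WT and 29.4 and 19.3 in the mutants. It fell by 4.68 ± 0.30 (limma adjusted p = 8.6e-07), the deepest fall outside the Dlx loci. The synthesis enzymes lay closer to WT. Gad2 read 605 in WT and 408 and 404 in the mutants, a fall of 0.61 ± 0.12 (adjusted p = 0.0031), and Gad1 read 583, 518 and 522, a difference of −0.21 ± 0.11 that did not pass (adjusted p = 0.24). Slc38a1, a glutamine transporter of GABAergic neurons, rose by 0.43 (adjusted p = 0.013). Of the 7 genes of the list, 1 rose (14.3%, against 8.92% of all genes tested), 2 fell (28.6%, against 6.91%) and 4 did not pass. In bulk tissue, fewer cells of a type and less RNA per cell cannot be told apart, and this holds for every difference given here.

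The non-coding gene Gm14204 fell together with Slc32a1, from 280.9 to 45.4 and 34.7 (−2.83 ± 0.28, adjusted p = 2.8e-05). RefSeq places the starts of these genes head to head on opposite strands, and their promoter windows share 134 bases. Of the genes called and at least 2-fold in both arrays, 75 of 113 lower and 174 of 225 higher genes had a promoter window. Among those genes, Slc32a1 and Gm14204 were the 1 pair whose windows overlapped on opposite strands. The Slc32a1 window (GRCm38.p6, plus strand) is shown with the stretch shared with Gm14204 in capitals; it holds no TAATTA.
Slc32a1, window at chr2:158610508-158610807: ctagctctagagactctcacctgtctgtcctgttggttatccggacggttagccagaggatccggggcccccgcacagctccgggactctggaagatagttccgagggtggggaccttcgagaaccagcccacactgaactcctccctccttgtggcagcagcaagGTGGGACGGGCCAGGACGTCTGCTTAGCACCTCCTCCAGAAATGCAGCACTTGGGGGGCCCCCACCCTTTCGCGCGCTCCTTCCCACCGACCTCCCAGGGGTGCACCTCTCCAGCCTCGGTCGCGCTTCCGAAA

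Transcription factors of the MGE and its interneurons moved in both directions. Of 18 with a probe set 16 were tested. Among these 7 rose (43.8%, against 8.92% of all genes tested), 4 fell (25%, against 6.91%) and 5 did not pass. Their median was 0.27 against 0.00195 for all genes tested. The falls were led by Lhx8, the LIM-homeodomain factor of cholinergic neurons, with a signal of 1513 in WT and 168 and 164 in the mutants (−3.18 ± 0.13, limma adjusted p = 1.4e-08). Maf, a bZIP factor of MGE-derived interneurons, read 943, 120 and 146, a fall of 2.86 ± 0.16 that all 4 of its probe sets shared in direction (adjusted p = 2.2e-07). Zeb2, which directs MGE cells towards the cortex, fell by 1.11 (514 in WT, 238 and 254 in the mutants; adjusted p = 0.00014). Lhx6 went from 1321 to 895 and 924, a fall of 0.53 ± 0.09 by its brightest probe set (adjusted p = 0.0017), but its other probe set differed by 0.30, so its direction is uncertain.

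Of the factors that define the MGE, Nkx2-1 and Sox6 did not pass in either direction. Nkx2-1 read 43.3 in WT and 60.6 and 78.4 in the mutants (0.70 ± 0.31, limma adjusted p = 0.16), and Sox6, which acts downstream of Lhx6, read 792, 807 and 889 (adjusted p = 0.71). Rises were led by Gbx2, a homeodomain factor of some MGE-derived striatal cholinergic neurons, from 14.5 to 124 and 123 (3.16 ± 0.30, adjusted p = 2.3e-05). The caudal eminence factors Prox1 and Nr2f1 (Coup-TF1) also rose. Prox1 went from 61.6 to 196 and 195 (1.65, adjusted p = 0.00014), and Nr2f1 from 1479 to 3852 and 3861 (1.44 ± 0.07, adjusted p = 1.3e-07). Other rises in the list were Tshz2 by 1.13, Zfhx3 by 0.93, Tshz1 by 0.81 and Satb1 by 0.37. Too dim on average to test were Sp8 (44.3 in WT, 12.8 and 6.30 in the mutants) and Npas1 (15.9, 2.81 and 7.53), both lower in the mutant arrays. On the short list of basal forebrain cholinergic genes, 5 of 12 were bright enough to test: Gbx2 and Isl1 rose and Lhx8 fell. The acetylcholine synthesis gene Chat itself was not tested, at 36.1 in WT and 23.3 and 14.8 in the mutants.

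Of 9 interneuron peptide and marker genes tested, 3 rose (33.3%, against 8.92% of all genes tested) and 4 fell (44.4%, against 6.91%). Sst, the somatostatin gene, had a signal of 352 in WT and 2793 and 2828 in the mutants, a rise of 3.004 ± 0.09 (limma adjusted p = 8.9e-10). Npy, the neuropeptide Y gene, read 1872, 4755 and 4424 (1.38 ± 0.07, adjusted p = 1.3e-07), and Crh, the corticotropin-releasing hormone gene, 39.1, 132 and 104 (1.60, adjusted p = 0.0016). For each of these 3 genes both mutant arrays stood above WT and close to each other. Falls were seen in Nxph1, a secreted neurexin ligand (629 in WT, 320 and 312; −1.03, adjusted p = 0.00012), the serotonin receptor gene Htr3a (223, 113 and 113; −1.03, adjusted p = 0.0030), the substance P gene Tac1 (−0.88, adjusted p = 0.0029) and the calbindin gene Calb1 (−0.49, adjusted p = 0.025). A further 9 of the 18 genes of the list with a probe set were not tested. Calb2, the calretinin gene, was too dim on average to test, at 129 in WT and 14.5 and 6.35 in the mutants, as were the peptide genes Vip (16.9, 3.18 and 15.51) and Cck (24.9, 12.4 and 11.7). Equally dim but higher in both mutant arrays were the parvalbumin gene Pvalb (3.33, 16.2 and 19.1) and the Crh binding protein gene Crhbp (2.62, 17.6 and 11.5).

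Other genes of signalling molecules showed the same mixture. Pmch, the melanin-concentrating hormone gene of lateral hypothalamic neurons, rose from 37.5 to 104 and 111 (1.55, limma adjusted p = 0.0016), and the neurotensin gene Nts fell by 1.40 (adjusted p = 0.037). The vesicular monoamine transporters both fell. Slc18a2 read 225 in WT and 83.9 and 65.4 in the mutants (−1.64, adjusted p = 0.00053), and Slc18a1 80.1, 22.7 and 12.8 (−2.22, adjusted p = 0.0064). Npy1r, a receptor of neuropeptide Y, fell by 1.498 (adjusted p = 0.025), opposite in sign to Npy. Pmch, Nts and Npy1r stood on no list and were chosen after their values were seen.

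Striatal genes were balanced, with 3 higher, 3 lower and 12 not called of 18 (median −0.02). Each direction held 16.7%, against 8.92% higher and 6.91% lower among all genes tested. Ebf1, a factor of striatal projection neurons of the direct pathway, fell from 280 to 109 and 96.3 (−1.49, limma adjusted p = 0.00029). Zfp503 (Nolz1), a zinc finger factor of the striatum, read 427, 202 and 219 (−1.07, adjusted p = 0.00033). In the other direction, the TALE homeobox gene Pbx3 rose from 696 to 2116 and 2103 (1.60 ± 0.08, adjusted p = 1.3e-07) and the LIM-homeodomain gene Isl1 from 1339 to 2296 and 2232 (0.81, adjusted p = 2.7e-05). Foxp2 separated the mutant arrays, at 154 in WT against 52.7 and 121, and did not pass (adjusted p = 0.081).

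Progenitor factors that pattern the ventral forebrain rose in 7 of 11 cases (63.6%, against 8.92% of all genes tested) and fell in 1 (9.09%, against 6.91%). Gsx1, a homeodomain factor of MGE and lateral eminence progenitors that acts upstream of Dlx genes, read 112 in WT and 479 and 488 in the mutants, a rise of 2.07 ± 0.14 (limma adjusted p = 1e-06). Its relative Gsx2 rose by 0.68 (185, 309 and 307; adjusted p = 0.0069). Olig1, a bHLH factor of oligodendrocyte precursors, rose by 1.46 ± 0.11 (318, 923 and 868; adjusted p = 2.5e-06), and its neighbour Olig2 by 0.36 (adjusted p = 0.028). Otx2 rose by 1.25 (151, 388 and 359; adjusted p = 9.9e-05) and Lhx2 by 0.95 (adjusted p = 5.5e-05). The 1 fall was in Vax1, a homeodomain factor of the ventral midline and basal forebrain, at 263 in WT and 176 and 113 in the mutants (adjusted p = 0.017). Radial glia genes had a median of −0.04, with 8 higher (36.4%, against 8.92% of all genes tested) and 0 lower of 22.

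Among the largest rises were factors that normally mark other brain regions. Of 60 such factors with a probe set (septum, preoptic area, hypothalamus, diencephalon and brainstem), 19 were bright enough to test. Of those 10 rose (52.6%, against 8.92% of all genes tested) and 1 fell (5.26%, against 6.91%). Since a factor silent in WT passes the intensity filter only through the mutant arrays, this share is not a measure over the 60. With dim genes kept in the test, 0 of the 60 were called higher and 4 lower, and the median of the 60 was 0.06. Otp, which specifies neuroendocrine neurons of the hypothalamus, had a signal of 43.8 in WT and 844 and 982 in the mutants, a rise of 4.40 ± 0.14 (limma adjusted p = 2.4e-09). Dmrtb1, a DM-domain factor, read 5.36, 88.8 and 105 (4.24, adjusted p = 1.7e-05), and Tal2, a bHLH factor of GABAergic neurons of the midbrain, 8.78, 69.9 and 63.2 (3.01, adjusted p = 0.00030). For Dmrtb1 and Tal2 the WT values lay close to the floor, which leaves the size of the rise uncertain.

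The COE-family factor gene Ebf3 rose from 15.2 to 69.4 and 103 (2.54, limma adjusted p = 0.00044) and Hmx3, a homeodomain factor of hypothalamus and inner ear, from 15.6 to 40.8 and 57.2 (1.72, adjusted p = 0.015). Lhx9, a LIM-homeodomain factor of diencephalon and pallium, read 4.10 in WT, under the floor, and 131 and 115 in the mutants, but another probe set of it differed by −0.20 and stood for the gene when the floor was lower. Nhlh1, a bHLH factor of young neurons, rose by 1.49 (adjusted p = 0.041), and its relative Nhlh2 was not tested, at 3.40 in WT and 39.3 and 64.0 in the mutants. Other untested factors lay on either side of WT, such as Barhl2 (12.2 in WT, 1.37 and 3.98 in the mutants) and Barhl1 (3.70, 14.9 and 12.9). Msx3, a homeodomain factor known from the dorsal neural tube, rose from 33.6 to 120 and 122 (1.89, adjusted p = 0.00035), while Ptf1a, a bHLH factor of GABAergic neurons in cerebellum and spinal cord, fell from 77.3 to 29.4 and 23.9 (−1.54, adjusted p = 0.015). Msx3 and Ptf1a stood on no list and were chosen after their values were seen.

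**Figure D3:**
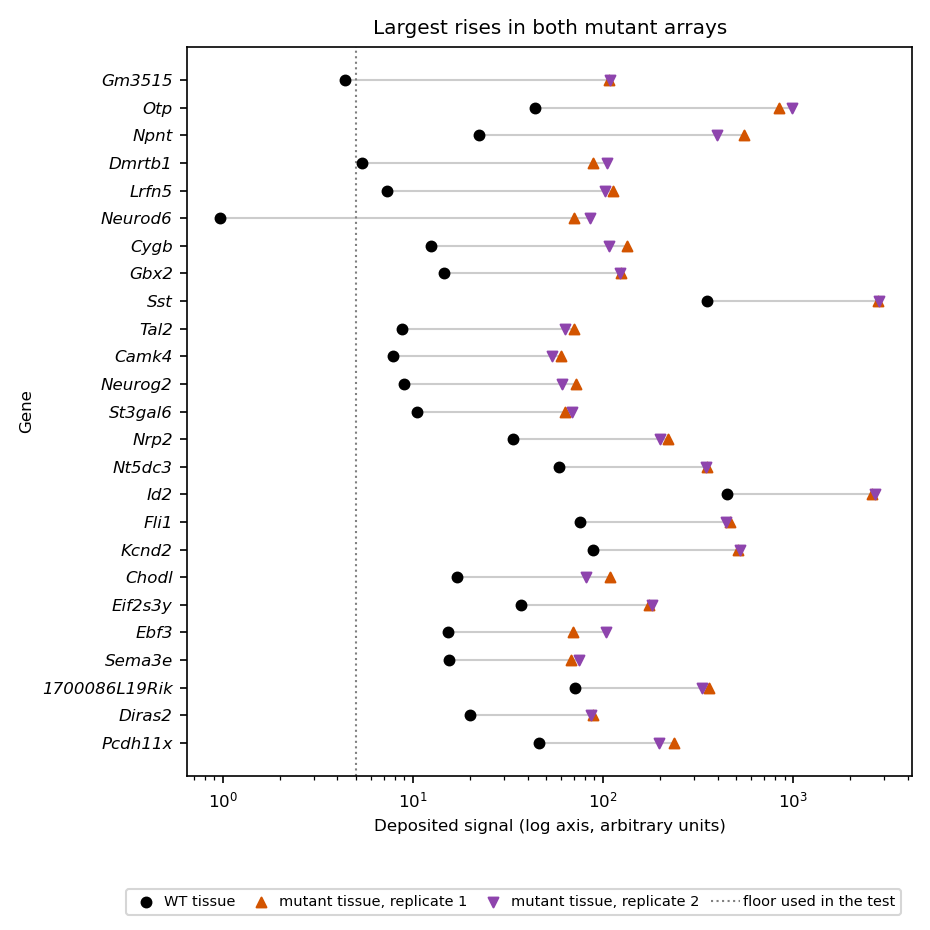
Deposited signal (log axis, arbitrary units) of the 25 genes with the largest rises in both mutant arrays, 1 row a gene, with the WT array as a circle, the mutant arrays as triangles and the floor of 5.02 as a dotted line. In every row both mutant arrays lie above WT; Gm3515 and Neurod6 lie under the floor in WT, while Sst and Id2 rise from WT signals of 352 and 450.

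Genes of glutamatergic neurons of the pallium (the future cortex) rose in part. Neurog2, the bHLH gene that starts the pallial programme, read 8.93 in WT and 71.6 and 60.5 in the mutants (2.97, limma adjusted p = 0.00034). The downstream bHLH gene Neurod2 read 13.0, 45.6 and 85.2 (2.35, adjusted p = 0.0029). Neurod6 was at the floor in WT (0.968) and read 70.3 and 85.2 in the mutants, at least 14.1-fold higher (adjusted p = 5.3e-05). For Neurog2, as for Neurod6, the WT value lay close to or under the floor, which leaves the size of the rise uncertain. Other defining pallial genes were too dim on average to test. In the order WT, mutant 1, mutant 2, Tbr1 read 29.3, 9.34 and 1.19 and Emx1 32.8, 5.80 and 4.03, both lower in the mutant arrays. Eomes, the gene of intermediate progenitors, read 11.03, 58.4 and 17.8 and the glutamate transporter gene Slc17a7 2.61, 14.4 and 5.17, both higher in the mutant arrays. Emx2 did not pass (105, 93.4 and 94.2; adjusted p = 0.60).

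The transporter Slc17a6, which loads glutamate in subcortical neurons, read 1.35 in WT and 50.04 and 42.5 in the mutants and was not tested. Of 16 pallial genes with a probe set, 8 were tested and 4 rose (50%, against 8.92% of all genes tested). Among them was Cux1, for which 2 of 7 probe sets agreed in direction. Neurog2, Neurod2 and Neurod6 passed the intensity filter through the mutant arrays, so this share is not a measure over the 16, and with the filter at the 60th percentile 1 of 4 tested rose. The summed signal of the 16 genes was 717 in WT and 1087 and 1117 in the mutants. Whether pallial tissue in the dissected pieces bears on these rises was not tested.

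**Figure D4:**
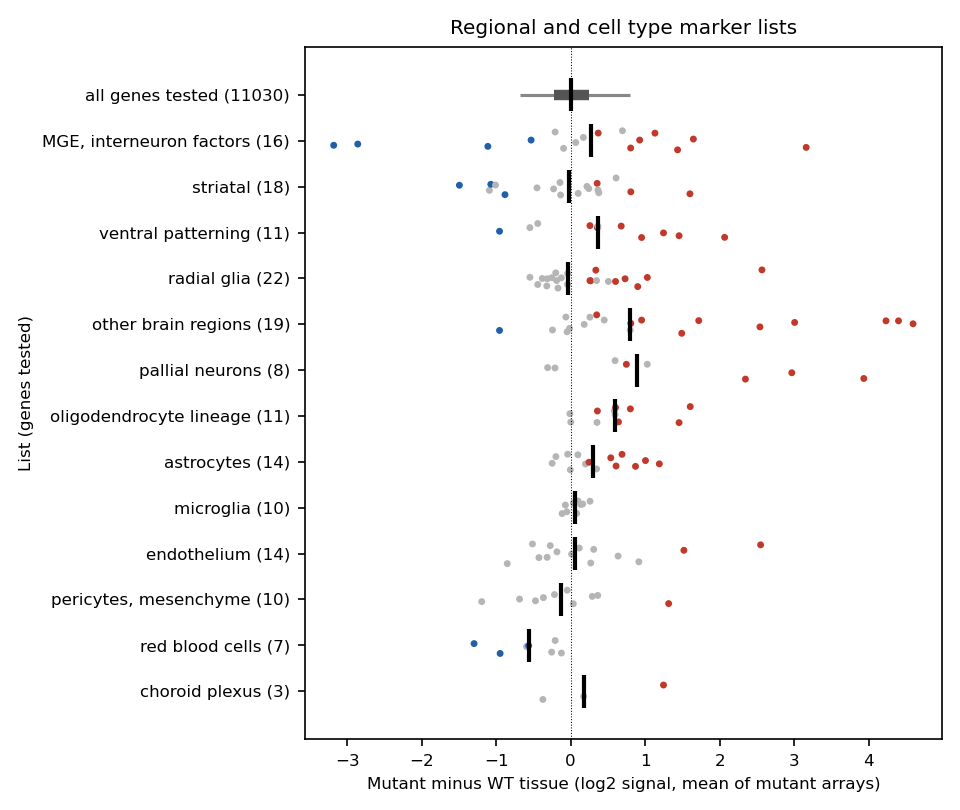
Mutant minus WT difference (log2 signal, x axis) of the tested genes of each regional and cell type list, with called genes in red (higher) or blue (lower), others in grey, list medians as black bars and, at the top, the range of all genes tested (box from the 25th to the 75th, line from the 5th to the 95th percentile). The lists of other brain regions and of pallial neurons reach furthest to the right, and microglia stay close to 0.

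Cell cycle genes fell almost throughout. Of 40 genes of G1 and S phase, 33 fell, 0 rose and 7 did not pass (median −0.72, −0.73 in mutant array 1 and −0.72 in mutant array 2). Of 39 genes of G2 and mitosis, 38 fell and 1 did not pass (median −0.84, −0.81 and −0.88 in the mutant arrays). Over all genes tested 6.91% fell and the median was 0.00195. Most of these falls were less than 2-fold: in both arrays 6 genes of the first list and 5 of the second were at least 2-fold lower. In the first list all probe sets of a gene agreed for 32 of the 33 called genes, and in the second for 37 of 38.

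Within S phase genes, Ccne2, the cyclin that starts replication, read 589 in WT and 280 and 251 in the mutants (−1.20, limma adjusted p = 8.9e-05). Cdc6, which loads the replicative helicase, read 373, 170 and 180 (−1.14), Gins2, a part of that helicase, 436, 193 and 189 (−1.24), and Pole, the leading-strand polymerase, fell by 1.27. Ccnd2, a D-type cyclin of neural progenitors, read 5071, 2853 and 2975 (−0.69, adjusted p = 7.1e-05), with all 7 probe sets lower, and the replication clamp Pcna 10025, 6873 and 6197 (−0.42, adjusted p = 0.00071). Ccnd1 fell by 0.35 (adjusted p = 0.036).

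Within G2 and mitosis, the kinase gene Cdk1 read 2287 in WT and 1281 and 1186 in the mutants (−0.84, limma adjusted p = 3.7e-05). The kinetochore gene Nuf2 read 629, 294 and 276 (−1.19), Aurora kinase B, Aurkb, 614, 309 and 295 (−1.06), and the proliferation marker Mki67 686, 427 and 386 (−0.80, adjusted p = 0.00071). Genes of cell cycle exit were mixed, with 3 higher (20%, against 8.92% of all genes tested) and 4 lower (26.7%, against 6.91%) of 15. Gadd45g rose from 207 to 477 and 484 (1.16, adjusted p = 6.3e-05), Btg2, a marker of progenitors about to make neurons, by 0.90 (adjusted p = 0.00014), and Cdkn1a (p21) by 0.85 (adjusted p = 0.011). The pocket protein gene Rbl1 (p107) fell by 0.86 and the Cdk4/6 inhibitor genes Cdkn2c and Cdkn2d by 0.56 and 0.40.

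Markers of neurons in general were higher beside these falls: 11 of 15 rose (73.3%, against 8.92% of all genes tested) and 1 fell (median 0.61). Rbfox3, which encodes the mature neuron marker NeuN, read 84.6 in WT and 385 and 365 in the mutants (2.11, limma adjusted p = 2.6e-06). The neurofilament genes Ina and Nefm rose by 1.21 and 1.16 and the synaptic vesicle calcium sensor gene Syt1 by 0.82. Tubb3, present from the earliest neuronal stage, differed by −0.13 (adjusted p = 0.29), and the young-neuron gene Dcx rose by 0.34 (adjusted p = 0.0067). The summed signal of the 15 neuronal genes was 19709 in WT and 24810 and 24597 in the mutants, while that of the G2 and mitosis genes was 44177, 24562 and 23950. The part that the share of progenitors and neurons in the dissected pieces had in either list was not tested.

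**Figure D5:**
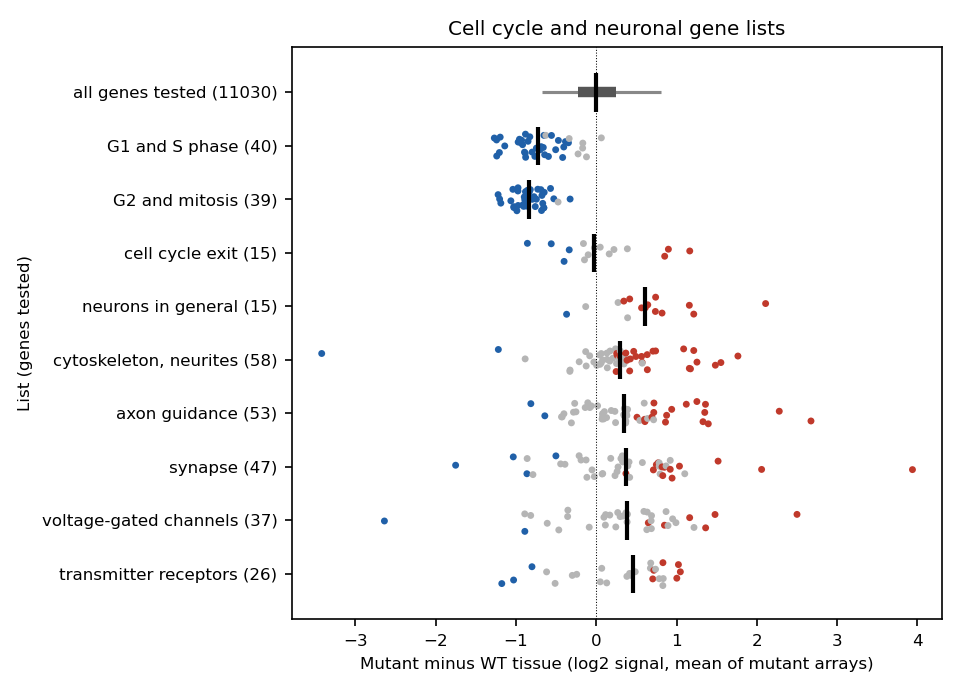
Mutant minus WT difference (log2 signal, x axis) of the tested genes of the cell cycle and neuronal lists, with called genes in red (higher) or blue (lower), others in grey, list medians as black bars and, at the top, the range of all genes tested (box from the 25th to the 75th, line from the 5th to the 95th percentile). All but 1 of the G1 and S phase genes and all G2 and mitosis genes lie left of 0, with medians of −0.72 and −0.84, while the medians of the neuronal lists lie right of 0.

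Genes of the cytoskeleton and neurite growth rose in 27 (46.6%, against 8.92% of all genes tested) and fell in 2 of 58 cases (median 0.30), and for 21 of the 27 all probe sets agreed. Ank3, which encodes ankyrin G of the axon initial segment, read 129 in WT and 438 and 466 in the mutants (1.76, limma adjusted p = 4.6e-06). Mapt, the tau gene, read 512, 1480 and 1561 (1.55 ± 0.09, adjusted p = 3.7e-07), and Gap43, the growth cone protein gene, 501, 1141 and 1147 (1.17, adjusted p = 5.9e-06). Among the p21-activated kinases, which relay Rac and Cdc42 signals to actin, Pak3 rose from 1072 to 2675 and 2324 (1.25 ± 0.09, adjusted p = 1.5e-06) and Pak7 from 83.6 to 207 and 279 (1.48, adjusted p = 0.00035). Smaller rises were those of Map6 (1.09), Basp1 (0.64), Rac1 (0.47) and Stmn2 (0.42).

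The 2 falls of this list were genes of small GTPase signalling. Tiam2, a guanine nucleotide exchange factor that activates Rac, had a signal of 438 in WT and 38.8 and 44.6 in the mutants. This was a fall of 3.42 ± 0.24 by its brightest probe set (limma adjusted p = 2.1e-06). Its other probe set above the filter fell by only 0.54, so the size of the fall is uncertain. Rnd2, a small GTPase needed for migration of cortical neurons, read 972, 391 and 454 (−1.22, adjusted p = 2.6e-05). By the brightest probe set of both genes the mutant arrays lay well below WT, while most of the list lay above it. The list holds Pak3 and Gap43 from knowledge of work on these mutants, so it is not independent evidence of its direction.

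Axon guidance genes rose in 17 (32.1%, against 8.92% of all genes tested) and fell in 2 (3.77%, against 6.91%) of 53 cases (median 0.35). Nrp2, the semaphorin receptor that steers cortical interneurons around the striatum and that Dlx proteins are known to repress, read 33.4 in WT and 219 and 199 in the mutants (2.67 ± 0.22, limma adjusted p = 7.2e-06). The secreted semaphorin Sema3e read 15.48, 67.7 and 75.1 (2.28, adjusted p = 0.00088). Netrin receptor genes Unc5c and Unc5b rose by 1.36 and 1.35, and the adhesion genes L1cam, Ntng1 and Cntn1 by 1.40, 1.33 and 1.25. Robo1, a receptor for Slit repellents, rose from 454 to 738 and 796 (0.72, adjusted p = 0.00063). For 13 of the 17 rises all probe sets agreed in direction. The 2 falls, in Epha5 and Nrcam, were each contradicted by 1 of 4 probe sets.

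Receptors that guide migrating interneurons included 2 falls among 23 tested (8.7%, against 6.91% of all genes tested), both receptors of the chemokine Cxcl12. Ackr3 read 4602 in WT and 1670 and 1632 in the mutants (−1.39 ± 0.08, limma adjusted p = 2.1e-07), and Cxcr4 415, 190 and 231 (−1.03, adjusted p = 0.00076). In the same list 7 genes rose (30.4%, against 8.92% of all genes tested), and for 5 of the 7 all probe sets agreed. Nrp2 and Robo1 were among the 7, together with the repellent gene Slit1 (0.88) and the Reelin adaptor gene Dab1 (0.78). Edn3, the endothelin 3 gene, which lies outside the list, fell from 177 to 53.6 and 45.9 (−1.86, adjusted p = 0.00048).

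Among voltage-gated channels 6 rose (16.2%, against 8.92% of all genes tested) and 2 fell (5.41%, against 6.91%) of 37 (median 0.38), and the A-type potassium channels were split. Kcnd2 (Kv4.2) read 88.6 in WT and 513 and 522 in the mutants (2.50 ± 0.14, limma adjusted p = 2.2e-07), and Kcnip2, the gene of a protein that binds Kv4 channels, rose by 1.36 (25.8, 81.8 and 49.0; adjusted p = 0.031). Kcnd3 (Kv4.3) fell by 0.89 (238, 152 and 119; adjusted p = 0.010). The modifier subunits were split as well: Kcns2 fell from 197 to 32.4 and 31.2 (−2.64 ± 0.30, adjusted p = 8.1e-05) and Kcnv1 rose by 1.48 (adjusted p = 0.027).

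Transmitter receptors rose in 6 of 26 cases (23.1%, against 8.92% of all genes tested) and fell in 3 (11.5%, against 6.91%). The rises comprised the AMPA subunit gene Gria2 (1.047), the GABA-A subunit genes Gabra3 (1.02) and Gabrb2 (0.83), the GABA-B gene Gabbr1 (1.003), the glycine receptor gene Glrb (0.72) and the cannabinoid receptor gene Cnr1 (0.70). The falls were in the serotonin receptor genes Htr1b (−1.18; 0.23 with the mean of its probe sets) and Htr3a (−1.03) and the kainate receptor gene Grik3 (−0.80). Among these 9 genes the highest adjusted p from limma was 0.038, for Htr1b.

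Synaptic genes rose in 13 (27.7%, against 8.92% of all genes tested) and fell in 4 (8.51%, near the 6.91% of all genes tested) of 47 cases (median 0.37). Lrfn5, a postsynaptic adhesion gene, read 7.33 in WT and 112 and 102 in the mutants (3.94, limma adjusted p = 1.5e-05), a size left uncertain by a WT value close to the floor. Cplx2, the complexin 2 gene of vesicle release, read 203, 607 and 594 (1.52, adjusted p = 5.1e-06). Cbln4, a secreted synapse organizer of somatostatin interneurons, rose by 2.06 (20.1, 66.3 and 95.9; adjusted p = 0.0015), while its relative Cbln1 fell by 0.86 (adjusted p = 0.026). Nrxn3, the neurexin 3 gene, read 451, 133 and 145, a fall of 1.75 ± 0.16 (adjusted p = 1.9e-05). With Nxph1, a neurexin and a neurexin ligand thus both fell in both mutant arrays.

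Adhesion and matrix genes mostly rose where they were called. Of 26 cadherins and protocadherins 9 rose (34.6%, against 8.92% of all genes tested) and 1 fell (3.85%, against 6.91%). Pcdh11x rose from 46.0 to 236 and 196 (2.23, limma adjusted p = 2.7e-05) and the calsyntenin gene Clstn2 by 1.89, while Pcdh20 fell by 1.32 (adjusted p = 0.045). Of 34 matrix genes 12 rose and 0 fell (35.3%, against 8.92% of all genes tested called higher). Npnt, which encodes the integrin ligand nephronectin, had a signal of 22.1 in WT and 549 and 399 in the mutants (4.46 ± 0.22, adjusted p = 8e-08). That is its brightest probe set. Its 3 probe sets above the filter rose by 0.93 to 4.46, which leaves the size of the rise uncertain. By brightest probe sets, the next rise of the list was that of the syndecan gene Sdc3 (1.27). Adamts5, a protease that cleaves proteoglycans of the matrix, lies outside the list and fell from 252 to 64.3 and 69.1 (−1.97, adjusted p = 8.8e-05).

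Most signalling genes were not called, in either direction; of all genes tested 15.8% were. In the hedgehog pathway Shh, the ligand made by MGE neurons, read 240 in WT and 66.0 and 30.1 in the mutants (−2.44 ± 0.38, limma adjusted p = 0.00075). Its receptor and target Ptch1 fell by 0.51 (1166, 800 and 834; adjusted p = 0.0029) and the transducer Smo by 0.62 (adjusted p = 0.0034), while the effector Gli2 rose by 1.06 (adjusted p = 0.028). Gli1, a direct readout of the pathway, was dim in all arrays, at 15.2, 1.48 and 1.34. In all 1 hedgehog gene rose (9.09%, against 8.92% of all genes tested) and 3 fell (27.3%, against 6.91%) of 11.

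In the BMP and TGF-beta list 3 genes rose (16.7%, against 8.92% of all genes tested) and 1 fell (5.56%, against 6.91%) of 18. Id2, an inhibitor of bHLH factors, read 450 in WT and 2602 and 2698 in the mutants (2.57 ± 0.09, limma adjusted p = 2.4e-09), with its 3 probe sets all higher. Id4 read 2999, 5947 and 5347 (1.03, adjusted p = 1e-06), whereas Id1 and Id3 differed by −0.32 each and did not pass (adjusted p = 0.29 and 0.25). The ligand gene Tgfb3 fell from 196 to 48.1 and 33.0 (−2.31, adjusted p = 0.00026).

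Of 26 Notch pathway genes 5 rose (19.2%, against 8.92% of all genes tested) and 0 fell. All 5 rises were less than 2-fold: the receptor Notch2 (0.77), the ligands Jag1 (0.70), Dll1 (0.59) and Dner (0.58), and Hes6 (0.63). The effectors Hes1 and Hes5 differed by −0.55 and −0.13 (limma adjusted p = 0.13 and 0.34). Of 22 Wnt genes 3 rose, the inhibitor Dkk1 (1.43) and the factors Lef1 (1.16) and Tcf7l1 (0.95), and 1 fell, the receptor Fzd2 (−0.36). These shares (13.6% and 4.55%) were near those of all genes tested (8.92% and 6.91%). The FGF feedback inhibitor gene Spry2 rose by 1.06 (adjusted p = 0.00014), in a list with 2 higher (15.4%) and 1 lower (7.69%) of 13. Crabp2, a carrier of retinoic acid, was the 1 called of 8 retinoid genes and fell from 278 to 112 and 106 (−1.39, adjusted p = 0.00035). The median of these 8 genes was −0.64, and 2 of them lay above 0. Too dim on average to test were Crabp1, lower in the mutants (112.9 in WT, 5.20 and 19.5), and Cyp26a1, higher (3.03, 20.9 and 7.37). The summed signal of the 17 retinoid genes with a probe set was 1235 in WT and 768 and 902 in the mutants. Of 10 insulin-like growth factor genes 2 rose, Igfbp5 (0.91) and Igfbpl1 (0.82), and 1 fell, Igfbp4, whose probe sets disagreed.

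The glial genes called were all higher. Of 11 genes of the oligodendrocyte lineage 6 rose (54.5%, against 8.92% of all genes tested) and 0 fell. Their median was 0.60 against 0.00195 for all genes tested. The precursor receptor gene Pdgfra read 133 in WT and 435 and 405 in the mutants (1.61, limma adjusted p = 1.4e-05), and Olig1, given above, also belongs here. A further 4 of 15 lineage genes were too dim on average to test. Of these Cspg4 was lower in the mutants (34.0 in WT, 3.23 and 10.7), while Gpr17 (3.03, 61.4 and 60.9), Nkx2-2 (1.05, 22.3 and 17.8) and Mag (2.30, 17.1 and 4.81) were higher. Of 14 astrocyte genes 7 rose (50%) and 0 fell (median 0.30), with Apoe, the main brain lipid carrier, at 1.19, the glutamate transporter gene Slc1a2 at 1.005 and Aldoc at 0.87. The summed signal of the lineage list was 3391 in WT and 5660 and 5669 in the mutants, and that of the astrocyte list 8063, 10214 and 9848.

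Among markers of non-neural cells, few were called, and the red blood cell genes tested all lay below WT. None of 10 microglial genes was called (summed signal 1411 in WT, 1509 and 1471 in the mutants). Of 14 endothelial genes 2 rose (14.3%, against 8.92% of all genes tested). Fli1, an ETS factor of blood and endothelial cells, rose from 75.3 to 463 and 444 (2.55 ± 0.15, limma adjusted p = 3.4e-07), and Pecam1 by 1.52 (adjusted p = 0.022). The summed endothelial signal was nonetheless alike, at 2857, 2846 and 2948. Of 10 pericyte and mesenchymal genes only Ogn rose (1.32, adjusted p = 0.0033). Red blood cell genes fell in 3 of 7 cases (42.9%, against 6.91% of all genes tested), and all 7 lay below 0 with a median of −0.56. The falls were led by the embryonic globin Hbb-bh1 (−1.30, adjusted p = 0.0061), with summed signals of 12400, 10002 and 8946. Of 10 choroid plexus genes 3 were bright enough to test, and the 1 that rose was Otx2. The defining gene Ttr was dim in all arrays (16.9, 1.49 and 4.77). The summed signal of the 10 genes, Otx2 included, was 300 in WT and 545 and 496 in the mutants. Whether the dissected pieces held choroid plexus was not tested.

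Sex-linked transcripts separated the WT array from the mutants. Xist, the RNA that coats the silenced X chromosome in female cells, read 625 in WT and 106 and 143 in the mutants (−2.39 ± 0.19, limma adjusted p = 4.1e-06). The Y-linked genes Eif2s3y (36.8, 174 and 181; 2.29, adjusted p = 2.9e-05) and Kdm5d (48.0, 161 and 132; 1.60, adjusted p = 0.00071) rose, and Uty differed by 0.83 (adjusted p = 0.071). With 1 WT array, the mixture of sexes in the samples and the genotype cannot be told apart for any gene.

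The lists of general metabolism and stress held small differences. Oxidative phosphorylation genes fell in 7 (19.4%, against 6.91% of all genes tested) and rose in 0 of 36 cases (median −0.09). The largest fall was that of the complex I gene Ndufv1 (−0.43). Glycolysis and hypoxia genes were 2 higher and 2 lower of 25 (8% each, near the 8.92% and 6.91% of all genes tested). Cholesterol synthesis genes were 1 higher and 1 lower of 21 (4.76% each), and immediate early genes 2 higher (20%) and 0 lower of 10. Of 21 stress genes 6 rose (28.6%, against 8.92% of all genes tested) and 1 fell (4.76%). That fall was in Asns, the asparagine synthetase gene (−0.72, limma adjusted p = 0.0042).

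Several of the largest differences lay in genes outside every list. Gucy1a1, a subunit of the nitric oxide receptor guanylate cyclase, fell from 655 to 174 and 175 (−1.96, limma adjusted p = 2.5e-06), with all 3 probe sets lower. Rai2, Cep295, Efcab6 and BC055324 fell by 1.64 to 2.56. Among rises, Cygb, the cytoglobin gene, read 12.4 in WT and 133 and 108 in the mutants (3.34, adjusted p = 2.5e-05), and Nt5dc3 58.2, 352 and 349 (2.58, adjusted p = 8.6e-07). Gm3515 was at the floor in WT (4.41) and read 108 in both mutant arrays, at least 20.99-fold higher. Camk4, a calcium-dependent kinase gene, rose by 2.94 from a WT signal of 7.88, close enough to the floor to leave the size uncertain. Further rises were those of Chodl by 2.53, 1700086L19Rik by 2.26 and Diras2 by 2.20. Acer3 (−1.52) and St3gal6 (2.73) were also among the largest differences by the rule, but each turned in sign when all 5 arrays chose the probe set.

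The mutant arrays disagreed by at least 2-fold on 132 genes. The widest gaps were in Mfap4, a matrix fibril gene (121 in WT, 3.81 and 50.5 in the mutants), Ino80b (90.2, 6.86 and 52.6), Gm29538 (36.3, 80.8 and 14.2), Sspo (52.3, 57.2 and 10.6) and Cysrt1 (47.0, 73.1 and 14.1). Of these 5 only Mfap4 was called (limma adjusted p = 0.045). Gm29538 was the 1 gene that lay at least 2-fold from WT in opposite directions in the 2 mutant arrays.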

How the data were processed

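RNA from 1 WT and 2 Dlx1/2 mutant samples of MGE tissue was measured on Affymetrix arrays. The values deposited by the authors are linear intensity signals of single probe sets. Which software made them is not stated in the labels, and the trimmed mean of each array was 150, after leaving out 2% of probe sets at each end. Here the 3 arrays were quantile normalized, floored at their pooled 20th percentile (a signal of 5.02, log2 2.33) and log2 transformed. The 34958 probe sets with 1 gene symbol in the platform annotation were used (932 had several, 9211 none, and 64 were controls), and 34754 matched RefSeq by Entrez identifier. The brightest probe set stood for each gene, and genes with a mean above the pooled median (log2 4.84, a signal of 28.6) were tested with limma 3.58.1 in R 4.3.3 (lmFit and eBayes with an intensity trend, Benjamini-Hochberg adjustment). The script was tested on simulated data. The number of arrays limits the precision.

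The comparison, its members and the 42 gene lists were chosen with earlier results of these data known, and lists are described by counts and medians without a set test. Genes named were the Dlx genes and other genes always named, the 25 largest falls and 25 largest rises (by the smaller of the differences of the mutant arrays, called, at least 2-fold in both and with every probe set above the filter on the same side), list members, the 5 genes on which the mutant arrays differed most, and a few genes marked as chosen after their values were seen. Alternatives were the deposited scaling, processing over all 5 arrays, another floor and other filters, the mean of a gene's probe sets, a prior without a trend, and each mutant array alone. Promoter windows of 300 bases came from RefSeq (GRCm38.p6).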

Additional observations from a re-analysis of the deposited data

How the results depend on the processing

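The calls depended on the intensity filter, the probe set rule and the variance prior. With the deposited scaling 1210 genes were called higher and 858 lower (1649 of the 1746 calls shared), with all 5 arrays in the processing 950 and 741, with a floor at the 10th percentile 1023 and 803, and with a filter at the 60th percentile 1169 and 998. With the mean of a gene's probe sets the counts were 249 and 201 (432 shared), with no filter on dim genes 11 and 378, and without an intensity trend 0 and 2. Averaged probe sets left 20 falls in each cell cycle list, and the last 2 settings left 0 in both. Of 178 named genes called, 176 were also called with the deposited scaling, 165 over 5 arrays, 90 with averaged probe sets, 8 without a filter and 2 without a trend. Neither Slc32a1 nor Gad2 was called with averaged probe sets, without a filter or without a trend. In the list of the Dlx family and its antisense RNAs, all 5 genes tested fell here and with averaged probe sets. Of that list 0 of 8 were called without a filter and 2 of 5 without a trend. Only 3 of its genes were tested with the floor at the 10th percentile or the filter at the 60th, and all 3 fell.

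Genes at least 2-fold higher or lower in both mutant arrays numbered 741 and 653 with no filter, and 158 higher with a filter at the 60th percentile. Left with either mutant array alone, 327 to 366 genes were higher and 234 to 240 lower by that fold, with no test, since no residual degrees of freedom remained. The named genes that changed sign were Acer3 (0.44) and St3gal6 (−0.60) over 5 arrays, Lhx9 (−0.20) with the lower floor, and Cux1 (−0.39) and Htr1b (0.23) with averaged probe sets, none called there. In these 5 cases another probe set entered the value. No paired analysis was possible because the WT group has 1 array and shares only 1 replicate number with the mutants.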
